A study of Mus musculus with 29 samples.

Results

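The 10 genes described here, Glul, Oat, Slc1a2, Rhbg, Axin2, Lgr5, Rnf43, Znrf3, Tbx3 and Lect2, are pericentral hepatocyte genes outside the Cyp family that are known as Wnt targets. They were chosen by symbol from the 55421 gene rows of the count table, each symbol matched a single row, and all 10 passed the filter on low counts in every comparison. Whole liver of 29 mice in 6 groups was profiled by bulk RNA sequencing, to ask what age and the MDM2 inhibitor HDM201, which releases p53 from its negative regulator, do to gene expression in normal tissue. Counts were given for 27 of the mice. Young females (5 mice) and young males (4 mice with counts) were C57BL/6N, 5 months old and given vehicle. Old vehicle females (4 mice) and old HDM201 females (5 mice) were C57BL/6J and 20 months old by the labels, while old vehicle males (4 mice with counts) and old HDM201 males (5 mice) were C57BL/6J and 24 months old. Treated mice received HDM201 by gavage at a daily 10 mg/kg over 14 days, and the labels name no engineered allele. Age and substrain changed together and cannot be told apart, and old females and old males also differed in age.

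Hepatocytes divide their work along the axis from the portal vein to the central vein. Endothelial cells of the central vein secrete Wnt ligands and R-spondins, and the hepatocytes beside them respond through beta-catenin and switch on a pericentral programme. That programme captures residual ammonia as glutamine, moves glutamate and ammonium across the membrane, and includes feedback genes that tune Wnt receptors. Periportal hepatocytes run the urea cycle and gluconeogenesis instead.

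Each mouse had 16485900 to 23570458 counts on genes, and values are given as CPM, read counts scaled to each mouse's TMM-adjusted library size. The female-expressed Xist had 5184 to 9977 counts in females and 0 to 7 in males, and the Y-linked Ddx3y and Eif2s3y had 0 counts in females and at least 554 in males, so the libraries matched their labelled sex. Nnt, a gene partly deleted in C57BL/6J, had 23 to 76 counts in old and 39 to 90 in young mice, so its counts overlapped between the labelled substrains. It was not called with age in females (FDR 0.232 by edgeR) or males (FDR 0.159), so Nnt did not tell the labelled substrains apart. Mdm2, a p53 target, was higher after HDM201 in females (log2 fold change 0.33 ± 0.08 SE, FDR 0.035 by edgeR), with a log2 fold change of 0.00 ± 0.08 in males (FDR 0.998). Cdkn1a, another p53 target, was not called in either sex, with 0.12 ± 0.57 in females (FDR 0.925) and 2.26 ± 0.74 in males (unadjusted p 0.011, FDR 0.298). Of the hepatocyte markers, 7 were measured and none was at 0 in every mouse of a group. In whole liver, fewer cells of a type and less RNA per cell cannot be told apart.

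All 10 genes are protein-coding in the GENCODE annotation, whose assembly GRCm38 is that of mm10. Glul lies at chr1:153899944-153909723 on the plus strand, Slc1a2 at chr2:102658659-102790784 (plus), Rhbg at chr3:88242874-88254709 (minus), Tbx3 at chr5:119670669-119684724 (plus) and Oat at chr7:132557478-132576398 (minus). Lgr5 lies at chr10:115450311-115587780 (minus), Znrf3 at chr11:5276324-5444847 (minus), Rnf43 at chr11:87662722-87735539 (plus), Axin2 at chr11:108920349-108950783 (plus) and Lect2 at chr13:56542464-56548502 (minus). Rhbg shares 61.4% of its exon bases with Gm38392 on the same strand, so its counts are uncertain. For the other 9 genes at most 3.80% of exon bases lie in exons of another gene on either strand, and whether the counting used strand is not stated.

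RefSeq promoter entries (GRCm38.p6) were found for 6 of the 10 genes, Glul, Slc1a2, Oat, Rnf43, Axin2 and Lect2, in 7 windows, and not for Rhbg, Lgr5, Tbx3 and Znrf3. The 250 bases before each start were searched on both strands for the TCF/LEF core, spelled CTTTGNN with A or T at each N. The core was found in the windows of Slc1a2 and Lect2 and not in those of Glul, Oat, Rnf43 or Axin2, while 14.8% of 32851 promoter windows of this length hold it. Both matching windows are printed with the match in capitals, read on the gene's strand as ATCAAAG, the reverse complement of CTTTGAT. Slc1a2 and Lect2 were lower in old females, and so were Glul, Oat and Axin2, whose windows lack the core. The Slc1a2 match starts 207 bases before the RefSeq start, in chr2:102706188-102706437 (plus strand), a window inside the gene's GENCODE span, and the Lect2 match starts 32 bases before it, in chr13:56548539-56548788 (minus strand). These matches describe the letters only and were not tested as binding sites.
Slc1a2: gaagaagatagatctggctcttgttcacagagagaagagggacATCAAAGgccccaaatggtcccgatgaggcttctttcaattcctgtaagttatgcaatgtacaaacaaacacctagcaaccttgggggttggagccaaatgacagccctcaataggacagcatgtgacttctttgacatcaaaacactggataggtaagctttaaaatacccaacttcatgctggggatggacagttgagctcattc
Lect2: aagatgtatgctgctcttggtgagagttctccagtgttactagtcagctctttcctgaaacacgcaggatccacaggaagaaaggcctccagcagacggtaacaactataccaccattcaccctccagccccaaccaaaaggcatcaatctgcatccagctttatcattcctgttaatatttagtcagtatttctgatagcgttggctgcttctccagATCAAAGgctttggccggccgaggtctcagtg

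Oat, Glul, Lect2 and Slc1a2 were the most abundant members per length, while the ammonium transporter gene Rhbg was at the level of the Wnt feedback genes. Per kilobase of annotated exon, young females had 401 ± 46.6 CPM of Oat (mean ± SD, n = 5), 352 ± 37.4 of Glul, 144 ± 19.4 of Lect2 and 14.7 ± 1.47 of Slc1a2. The remaining genes followed with 5.58 ± 0.983 CPM per kilobase for Tbx3, 5.20 ± 1.05 for Rnf43, 3.33 ± 0.568 for Rhbg, 2.93 ± 1.06 for Axin2, 1.76 ± 0.171 for Znrf3 and 0.615 ± 0.207 for Lgr5. The mice of Oat and Glul overlapped on this scale, as did those of Tbx3 and Rnf43 and those of Rhbg and Axin2 and those of Axin2 and Znrf3, so the order within each of these pairs is within the spread between mice. Young males had the same first 6 genes in the same order, and Rhbg was there ninth by counts, after Axin2 and Znrf3. The place of Rhbg is uncertain, since 61.4% of its exon bases are shared with Gm38392. By the deposited FPKM values, the young males with counts had 2.88 to 4.65 for Rhbg and 1.67 to 2.21 for Znrf3.

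**Figure D1:**
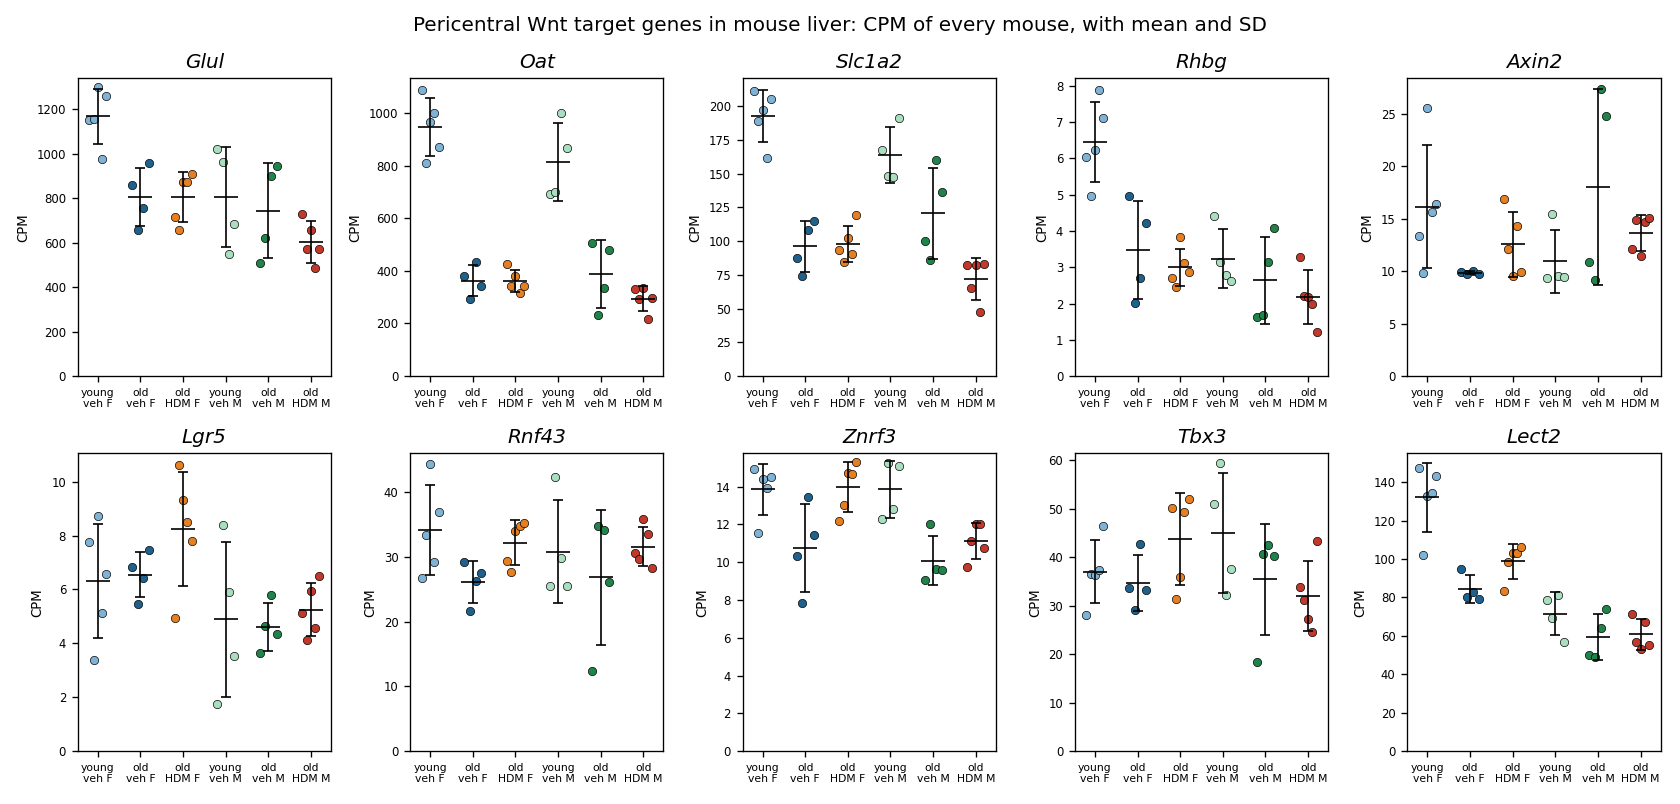
CPM (linear axes from 0) of the 10 genes in every mouse with counts, in 6 groups of 4 or 5 mice. Points are mice, horizontal marks are group means and bars are SD. For Oat, every old mouse lies below every young mouse of its sex, and for Lgr5 the groups overlap.

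With age in females, 6 of the 10 genes fell (Glul, Oat, Slc1a2, Rhbg, Axin2 and Lect2), none rose, and Rnf43, Znrf3, Tbx3 and Lgr5 were not called at an FDR of 0.05 by edgeR's quasi-likelihood test. Over all 14233 genes tested, 15.0% were called lower and 16.8% higher. The median log2 fold change of the 10 genes was -0.57, beside 0.01 for all genes. With age in males 1 gene fell, Oat, and none rose, where 0.931% of 13755 genes were called lower and 2.76% higher, and the median of the 10 genes was -0.27 beside -0.01 for all genes. The call in males rested on few mice, as given with Oat.

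HDM201 gave no call among the 10 genes in either sex by edgeR. In old females 5.25% of 14445 genes were called, 2.35% higher and 2.90% lower, and 3 of the 10 genes (Rnf43, Znrf3 and Lect2, all higher) had an unadjusted p under 0.05, as did 22.5% of all genes. DESeq2 also called 0 of the 10 in females. In old males 0.00709% of 14109 genes, a single gene, was called. Of the 10 genes 1, Slc1a2, had an unadjusted p under 0.05, beside 12.1% of all genes, and DESeq2 called Slc1a2. The median of the 10 genes was 0.25 in females and -0.20 in males, beside 0.00 and 0.01 for all genes. The comparisons of age and of HDM201 within a sex use the same old vehicle mice.

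Old HDM201 mice were also set against young vehicle mice. In females 5 genes were lower (Glul, Oat, Slc1a2, Rhbg and Lect2), where 12.6% of 13995 genes were called lower. In males 2 genes were lower (Oat and Slc1a2), where 7.56% of 14024 genes were. None of the 10 genes was called higher in either sex with all mice. Without young male 2, Axin2 was called higher in old HDM201 males than in young males (0.54, edgeR FDR 0.019).

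**Figure D2:**
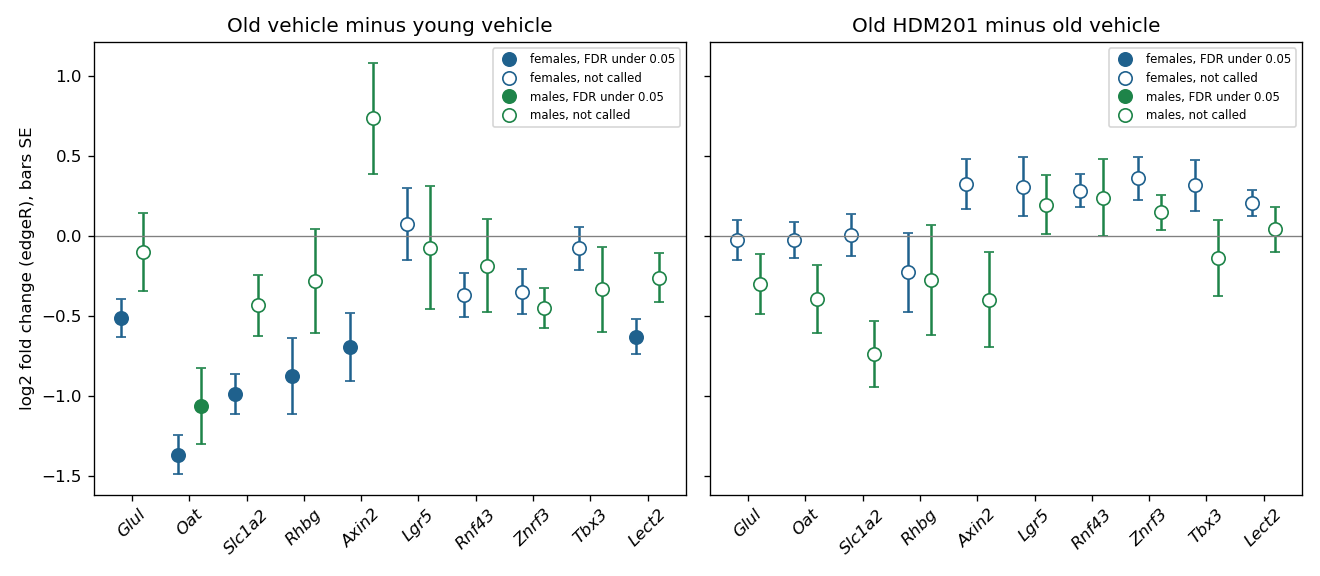
Log2 fold changes from edgeR for the 10 genes, with SE as bars, for old vehicle minus young vehicle mice (left) and old HDM201 minus old vehicle mice (right), females in blue and males in green. Filled points passed an FDR of 0.05. There are 6 filled points in females and 1 in males for age, and none for HDM201.

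Glul, glutamine synthetase, makes glutamine from glutamate and ammonia in the hepatocytes next to the central vein. In females it was 1151, 1156, 1298, 977 and 1259 CPM in young mice, 857, 655, 756 and 957 in old vehicle mice and 717, 656, 874, 872 and 911 in old HDM201 mice. Every old female lay below every young female, and the old groups overlapped. On the log2 scale Glul fell by 0.51 with age in females (SE 0.12, edgeR FDR 0.0063), a 1.43-fold change. The change with HDM201 in females was -0.02 ± 0.13 (log2 ± SE, FDR 0.945). In males it was 1019, 963, 549 and 684 CPM in young mice, 507, 621, 901 and 943 in old vehicle mice and 731, 570.0, 657, 485 and 569 in old HDM201 mice. The male groups overlapped, with log2 changes of -0.10 ± 0.24 for age (FDR 0.848) and -0.29 ± 0.19 for HDM201 (FDR 0.541). Old HDM201 females were lower than young females by 0.54 ± 0.11 (FDR 0.0037), and the same comparison in males gave -0.40 ± 0.19 (FDR 0.161).

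Oat, ornithine aminotransferase, feeds ornithine carbon toward glutamate and showed the largest change with age among the 10 genes in both sexes. In females it was 1088, 808, 966, 1000.1 and 869 CPM in young mice, 381, 294, 433 and 341 in old vehicle mice and 426, 341, 381, 317 and 343 in old HDM201 mice. The young and old females were far apart, and the old groups lay together. Oat fell with age in females by 1.36 (log2, SE 0.12, FDR 2.1e-05), a 2.57-fold change, and the HDM201 change was -0.02 ± 0.11 (FDR 0.937). In males it was 692, 698, 999.6 and 866 CPM in young mice, 507, 232, 334 and 477 in old vehicle mice and 332, 291, 335, 219 and 295 in old HDM201 mice. Young and old vehicle males did not overlap, and Oat fell by 1.06 (SE 0.24, FDR 0.041), a 2.08-fold change. The male call was lost without any one of old vehicle males 3 and 4 and young males 1, 2, 3 and 4, at FDR 0.051 to 0.123, with log2 changes from -1.22 to -0.88 over all mice left out in turn. It was also lost with the replicate block (FDR 0.150) and in limma on log2(FPKM + 1), which adds young male 5 and old vehicle male 1 (-0.75, adjusted p 0.337). Young male 5 had 132 FPKM, within the 101 to 222 FPKM of the old vehicle males, so on that scale the groups overlapped. The paper excluded a young male for an open wound and suspected infection, and does not say whether it was this mouse. HDM201 in males gave -0.39 ± 0.21 (FDR 0.475). Against young mice, old HDM201 mice were lower by 1.39 ± 0.11 in females (FDR 3.5e-06) and by 1.45 ± 0.16 in males (FDR 0.0006).

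Slc1a2, the glial-type glutamate transporter GLT-1, takes up glutamate in pericentral hepatocytes. Female levels of Slc1a2 were 211, 189, 197, 162 and 205 CPM in young mice, 87.4, 74.1, 108 and 115 in old vehicle mice and 93.6, 84.2, 102, 90.2 and 119 in old HDM201 mice. Young and old females did not overlap. Slc1a2 fell with age in females by 0.98 (SE 0.13, FDR 0.00021), a 1.98-fold change by counts, and the HDM201 change there was 0.01 ± 0.13 (FDR 0.977). In FPKM, young females had 33.6 to 43.4 and old vehicle females 21.8 to 32.2, a narrower gap. Male levels of Slc1a2 were 168, 148, 147 and 191 CPM in young mice, 100.2, 85.6, 160.2 and 136 in old vehicle mice and 82.0, 65.1, 82.5, 47.4 and 83.0 in old HDM201 mice. By counts, old HDM201 males all lay below old vehicle males, whose own range reached that of young males. By FPKM these 2 groups overlapped. Old HDM201 males had 9.72 to 20.6 FPKM, beside 18.2 in old vehicle male 2 and 16.2 in old vehicle male 1, which had no counts. The age change in males was -0.43 ± 0.19 (FDR 0.221) and the HDM201 change was -0.74 ± 0.21 (unadjusted p 0.0046, FDR 0.264 by edgeR), while DESeq2 gave -0.74 at an adjusted p of 0.0497. The HDM201 change differed between the sexes by 0.75 ± 0.27 (female minus male, unadjusted p 0.0114, FDR 0.143), which is not past the threshold. Old HDM201 mice were lower than young mice by 0.98 ± 0.10 in females (FDR 4.6e-05) and by 1.17 ± 0.16 in males (FDR 0.0019). With the deposited FPKM values in limma, the male difference was -0.51 at an adjusted p of 0.137.

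Rhbg, an ammonium transporter of the Rh family, had 22 to 145 counts per mouse. Female Rhbg was 6.05, 4.97, 6.24, 7.87 and 7.11 CPM in young mice, 4.95, 2.00, 2.71 and 4.22 in old vehicle mice and 2.71, 2.46, 3.82, 3.12 and 2.87 in old HDM201 mice. The lowest young and the highest old vehicle female differed by little, and no old female was above a young one. Rhbg fell with age in females by 0.87 (SE 0.24, FDR 0.0139), a 1.83-fold change, and the HDM201 change was -0.22 ± 0.25 (FDR 0.647). Male Rhbg was 4.41, 3.14, 2.78 and 2.62 CPM in young mice, 1.62, 1.68, 3.16 and 4.09 in old vehicle mice and 3.28, 2.19, 2.19, 1.97 and 1.21 in old HDM201 mice. The male groups overlapped, with changes of -0.28 ± 0.33 for age (FDR 0.660) and -0.27 ± 0.34 for HDM201 (FDR 0.777). Old HDM201 females were lower than young females by 1.10 ± 0.16 (FDR 0.0003), and males gave -0.56 ± 0.28 (FDR 0.179).

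Axin2, a scaffold of the complex that degrades beta-catenin and a widely used readout of Wnt signalling, was widely spread in some groups and close together in others. Axin2 in females was 13.4, 9.79, 25.5, 15.6 and 16.4 CPM in young mice, 9.96, 9.71, 10.0 and 9.70 in old vehicle mice and 16.9, 12.1, 9.56, 14.2 and 9.91 in old HDM201 mice. The old vehicle females were close together, at 9.85 ± 0.164 CPM (mean ± SD, n = 4), and overlapped the lowest young female. Axin2 fell with age in females by 0.69 (SE 0.21, FDR 0.0246), a 1.62-fold change, and the call was lost without old vehicle female 1, 2 or 4, at FDR 0.053, 0.057 and 0.056. The HDM201 change in females was 0.33 ± 0.16 (FDR 0.239). Axin2 in males was 9.31, 15.4, 9.54 and 9.41 CPM in young mice, 10.8, 9.16, 27.3 and 24.8 in old vehicle mice and 12.1, 14.9, 11.4, 14.7 and 15.1 in old HDM201 mice. The 4 old vehicle males fell into a low pair and a high pair, and the changes were 0.74 ± 0.35 for age (FDR 0.247) and -0.39 ± 0.30 for HDM201 (FDR 0.604). The age change differed between the sexes by -1.42 ± 0.44 (female minus male, unadjusted p 0.0045), at an FDR of 0.0695 by edgeR and an adjusted p of 0.0170 by DESeq2. Without old vehicle male 2 or 3, the low pair, the edgeR FDR of that difference was 0.043 or 0.034.

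The deposited FPKM values gave a wider spread of Axin2 than the counts did. The ratio of FPKM to CPM ran from 0.365 to 1.25 over the 27 mice, a 3.44-fold range, where that of Slc1a2 had a 2.47-fold range, that of Lgr5 a 1.80-fold range and those of the other 7 genes ranges of at most 1.47-fold. All 9 old females had Axin2 ratios of at most 0.437, the 5 young females had ratios of 0.517 to 0.908, and old vehicle males 2, 4 and 5 had ratios of 1.06, 1.25 and 1.22. In limma on log2(FPKM + 1), the age change in females was -1.34 for Axin2 (adjusted p 0.0135), and old HDM201 females were lower than young females by 1.13 (adjusted p 0.0225), a difference that the counts gave as -0.37 ± 0.22 (FDR 0.240). The cause of the unequal ratios was not tested.

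**Figure D3:**
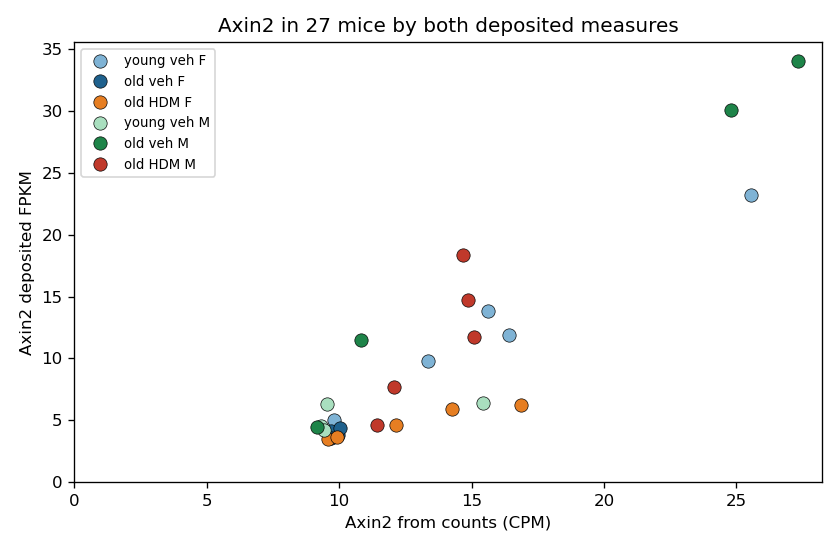
Axin2 in the 27 mice with counts, as CPM from the counts (horizontal axis) against the deposited FPKM (vertical axis), both linear from 0, with a colour for each group. Mice with like CPM differ in FPKM, and old females lie at the low edge, with ratios of 0.365 to 0.437.

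Lgr5, the R-spondin receptor that marks hepatocytes at the central vein, was the least abundant member per length. Lgr5 in females was 7.75, 3.38, 8.74, 5.12 and 6.57 CPM in young mice, 6.85, 5.48, 6.42 and 7.45 in old vehicle mice and 4.96, 10.6, 9.31, 8.50 and 7.80 in old HDM201 mice. Lgr5 in males was 1.75, 8.40, 5.89 and 3.53 CPM in young mice, 3.65, 4.64, 5.80 and 4.35 in old vehicle mice and 5.12, 4.12, 5.94, 4.59 and 6.49 in old HDM201 mice. All groups of a sex overlapped, and no comparison called Lgr5. The age changes were 0.08 ± 0.23 in females (FDR 0.825) and -0.07 ± 0.39 in males (FDR 0.938), both signs that turn when single mice are left out, and the HDM201 changes were 0.31 ± 0.19 (FDR 0.349) and 0.20 ± 0.18 (FDR 0.687).

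Rnf43 and Znrf3 encode ubiquitin ligases that remove Wnt receptors from the membrane. With TMM scaling and the filter on low counts, edgeR called neither with age or HDM201 in fits of the compared groups with all mice. Rnf43 in females was 26.7, 33.4, 44.4, 29.3 and 36.9 CPM in young mice, 29.1, 21.6, 26.2 and 27.5 in old vehicle mice and 29.3, 27.7, 34.0, 34.7 and 35.2 in old HDM201 mice. Its age change in females was -0.37 ± 0.14 (FDR 0.059) and its HDM201 change 0.29 ± 0.10 (unadjusted p 0.0164, FDR 0.122), with overlapping groups in both. DESeq2 called Rnf43 lower with age in females, at -0.38 and an adjusted p of 0.043. So did edgeR with RLE size factors (-0.38, FDR 0.049) and without the filter (-0.38, FDR 0.024). In males Rnf43 was 25.5, 42.3, 29.8 and 25.5 CPM in young mice, 12.4, 34.8, 34.1 and 26.1 in old vehicle mice and 30.6, 29.7, 35.8, 33.5 and 28.2 in old HDM201 mice. Old vehicle male 2 was the lowest of all 27 mice, and the changes were -0.18 ± 0.29 for age (FDR 0.753) and 0.24 ± 0.24 for HDM201 (FDR 0.700).

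Znrf3 in females was 14.9, 11.5, 14.4, 13.9 and 14.5 CPM in young mice, 10.3, 7.84, 13.4 and 11.4 in old vehicle mice and 12.2, 13.0, 14.7, 14.6 and 15.3 in old HDM201 mice. Old vehicle females reached the lowest values and overlapped both other groups. The age change was -0.35 ± 0.14 (FDR 0.080) and the HDM201 change 0.36 ± 0.13 (unadjusted p 0.0196, FDR 0.133). Without old vehicle female 3 the HDM201 change was 0.48 at an FDR of 0.049, and the age change -0.47 at 0.024. In males Znrf3 was 12.3, 15.3, 12.8 and 15.1 CPM in young mice, 9.07, 12.0, 9.64 and 9.61 in old vehicle mice and 9.74, 11.1, 12.0, 12.0 and 10.7 in old HDM201 mice. Among mice with counts, every old male was below every young male. The age change was -0.45 ± 0.13 (FDR 0.075 by edgeR, adjusted p 0.035 by DESeq2) and the HDM201 change 0.15 ± 0.11 (FDR 0.600). Young male 5, without counts, had 1.40 FPKM, within the 1.34 to 1.78 FPKM of the old vehicle males.

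Tbx3, a T-box transcription factor and target of beta-catenin in liver, was not called by edgeR in a fit of the compared groups alone, and with the replicate number as a block it was lower in old HDM201 than in young males (-0.58, FDR 0.033). Tbx3 in females was 28.1, 36.6, 36.3, 37.4 and 46.5 CPM in young mice, 33.7, 29.1, 42.7 and 33.1 in old vehicle mice and 50.2, 31.3, 35.9, 49.4 and 51.9 in old HDM201 mice. Tbx3 in males was 51.0, 59.4, 32.2 and 37.5 CPM in young mice, 18.3, 40.7, 42.4 and 40.3 in old vehicle mice and 33.9, 31.1, 27.3, 24.6 and 43.3 in old HDM201 mice. The groups of each sex overlapped. The age changes were -0.07 ± 0.14 in females (FDR 0.712), a sign that turned with the FPKM values, and -0.33 ± 0.27 in males (FDR 0.510), and the HDM201 changes were 0.32 ± 0.16 (FDR 0.264) and -0.14 ± 0.24 (FDR 0.849).

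Lect2, a protein secreted by hepatocytes, was higher in young females than in young males. Old females and old males were not compared by a test. Lect2 in females was 148, 102, 133, 134 and 143 CPM in young mice, 94.9, 80.1, 82.9 and 79.0 in old vehicle mice and 83.1, 98.6, 103, 103 and 106 in old HDM201 mice. Old vehicle females lay below all young females, and 4 of the 5 old HDM201 females lay above all old vehicle females. Lect2 fell with age in females by 0.63 (SE 0.11, FDR 0.0012), a 1.54-fold change, and its HDM201 change was 0.21 ± 0.08 (unadjusted p 0.0259, FDR 0.153). Old HDM201 females were lower than young females by 0.42 ± 0.10 (FDR 0.0089), and with the FPKM values this difference was -0.27 at an adjusted p of 0.105. In males Lect2 was 78.9, 69.3, 81.1 and 56.6 CPM in young mice, 50.2, 49.0, 63.9 and 74.0 in old vehicle mice and 71.4, 56.7, 53.3, 67.2 and 55.0 in old HDM201 mice. The male groups overlapped, with changes of -0.26 ± 0.16 for age (FDR 0.369) and 0.04 ± 0.14 for HDM201 (FDR 0.920).

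Between young females and young males 2 of the 10 genes were called, Rhbg and Lect2, both higher in females, where 5.63% of 13875 genes were called higher in females and 4.91% lower. Rhbg was 1.99-fold higher (log2 0.99 ± 0.19, FDR 0.0077) and Lect2 1.84-fold higher (0.88 ± 0.13, FDR 0.0017), and neither overlapped between the sexes. Glul gave 0.53 ± 0.18 (FDR 0.072 by edgeR), and DESeq2 called it at an adjusted p of 0.0248. Slc1a2 gave 0.23 ± 0.11 (FDR 0.212) by counts and 0.72 (adjusted p 0.0105) by FPKM in limma. Of 10 tested Wnt inhibitors and feedback genes outside the members, 2 were called between the young sexes, 8 were not, 6 had a log2 change below 0 and the median was -0.13. Nkd1, an inhibitor of Dishevelled, was higher in young females (0.98 ± 0.17, FDR 0.0044), as was Notum, a secreted enzyme that inactivates Wnt ligands (0.74 ± 0.19, FDR 0.030). Some markers of macrophages, endothelium, stellate cells and cholangiocytes were also higher in young females. Of 9 macrophage markers 7 were higher in young females and none lower, with a summed level of 238 to 359 CPM in females and 109 to 225 in males, and of 14 endothelial markers 6 were higher and none lower, with 278 to 358 and 196 to 244 CPM. Of 9 stellate markers 3 were higher and none lower, and of 5 tested cholangiocyte markers 2 were higher and none lower. Of 5 erythroid markers 1 was lower, and no lymphocyte or hepatocyte marker was called. No macrophage or endothelial marker was at 0 in every mouse of a group. The part of all these markers in the sex differences was not tested.

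Whether age or HDM201 acted differently in females and males was tested by interaction terms. For sex by age, none of the 10 genes passed an FDR of 0.05 by edgeR in the fit of the 4 vehicle groups, where 3.92% of 14721 genes did. At an unadjusted p under 0.05 were Axin2 and Slc1a2, 2 of the 10, where 21.5% of all genes were, and Axin2 was called by DESeq2 (adjusted p 0.0170) and by edgeR with all 6 groups in one fit (FDR 0.033) or without a filter (FDR 0.023). For sex by HDM201, none passed, where 0.107% of 14974 genes did, and Slc1a2 alone had an unadjusted p under 0.05, where 18.5% of all genes did. DESeq2 called 0 of the 10 there.

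Genes of both zones of the liver lobule were called lower in old females, where 15.0% of all genes were called lower and 16.8% higher. Of 14 other pericentral genes 7 fell with age in females and 2 rose, with a median of -0.38. Lhpp, a histidine phosphatase (-1.16 ± 0.16, FDR 0.0003), and Cyp2e1, which oxidises ethanol (-0.94 ± 0.17, FDR 0.0016), fell most, and the dicarboxylate transporter gene Slc13a3 (0.92 ± 0.20, FDR 0.0046) and the vasopressin receptor gene Avpr1a (0.76 ± 0.25, FDR 0.033) rose. Of 14 periportal genes 9 fell and none rose, with a median of -0.44, led by the E-cadherin gene Cdh1 (-1.0 ± 0.27, FDR 0.014) and the serine dehydratase gene Sds (-0.97 ± 0.20, FDR 0.0031). The urea-cycle gene Cps1 was 5146 ± 905 CPM (SD, n = 5) in young and 2642 ± 625 (n = 4) in old vehicle females.

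Enzymes and transporters around glutamine and ornithine fell as well. Of 11 tested genes of that list 6 fell with age in females and 1 rose, with a median of -0.29. Over all genes 15.0% were called lower and 16.8% higher. Got1, the cytosolic aspartate aminotransferase, fell by 1.49 (SE 0.20, FDR 0.00026), from 597 ± 115 CPM (SD, n = 5) to 209 ± 72.0 (n = 4). Prodh, which oxidises proline, fell by 0.89 (SE 0.15, FDR 0.00089), and Glud1, glutamate dehydrogenase, rose by 0.27 (SE 0.10, FDR 0.049).

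In old males against young males, fewer of these genes were called, where 0.931% of all genes were called lower and 2.76% higher. Of 14 other pericentral genes 1 fell, Slc16a10, a transporter of aromatic amino acids (-0.68 ± 0.15, FDR 0.038), and the list's median was -0.16. Of 14 periportal genes 2 fell, Sds (-1.44 ± 0.32, FDR 0.041) and the arginase gene Arg1 (-0.65 ± 0.13, FDR 0.025), with a median of -0.32. Of 11 glutamine and ornithine genes 1 fell, the ornithine carrier Slc25a15 (-0.86 ± 0.17, FDR 0.025), with a median of -0.24. No gene of these 3 lists rose.

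The Wnt pathway itself was read from 4 further lists. Of 26 ligands and agonists 11 passed the filter on low counts, and with age in females 3 rose and none fell, Wnt5a (0.97 ± 0.31, FDR 0.032) and Wnt4 (0.94 ± 0.18, FDR 0.0023) most and then Porcn, which acylates Wnt proteins (0.50 ± 0.15, FDR 0.021). Wnt4 went from 3.32 ± 0.745 CPM (SD, n = 5) to 6.30 ± 1.18 (n = 4) in females, and it also rose in males (0.97 ± 0.18, FDR 0.021), as the only ligand called there. The ligands known from central-vein endothelium were not called with age in females, with -0.49 ± 0.22 for Wnt9b (FDR 0.113), 0.04 ± 0.22 for Wnt2 (FDR 0.922) and -0.03 ± 0.19 for the R-spondin gene Rspo3 (FDR 0.927). Against young females, Wnt9b was lower in old HDM201 females (-1.03 ± 0.20, FDR 0.0029), at 0.802 ± 0.0897 CPM (SD, n = 5) against 1.64 ± 0.295 (n = 5).

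Of 11 tested receptors 3 rose and 1 fell with age in females, Fzd7 (0.84 ± 0.10, FDR 0.00013) and Ror1 (0.52 ± 0.16, FDR 0.025) most among the rises and Ryk (-0.21 ± 0.07, FDR 0.036) the fall. Of 19 intracellular genes 3 rose and 1 fell, with Tcf7l1 (0.88 ± 0.16, FDR 0.0018) and the scaffold Axin1 (0.47 ± 0.10, FDR 0.0045) as the largest rises and Tcf7l2 (-0.23 ± 0.08, FDR 0.046) as the fall. Of 10 tested inhibitors and feedback genes 3 rose and 1 fell, with Dkk3 (1.77 ± 0.20, FDR 8.8e-05) and the corepressor Tle2 (0.50 ± 0.14, FDR 0.015) as the largest rises and Tle1 (-0.50 ± 0.16, FDR 0.034) as the fall. Dkk3 also rose in old males (1.40 ± 0.24, FDR 0.015), the only gene of these 3 lists called there. The medians in females were 0.29 for ligands, -0.03 for receptors, 0.07 for intracellular genes and 0.13 for inhibitors, beside 0.01 for all genes. The calls in these lists stand beside 16.8% of all genes called higher and 15.0% lower with age in females.

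**Figure D4:**
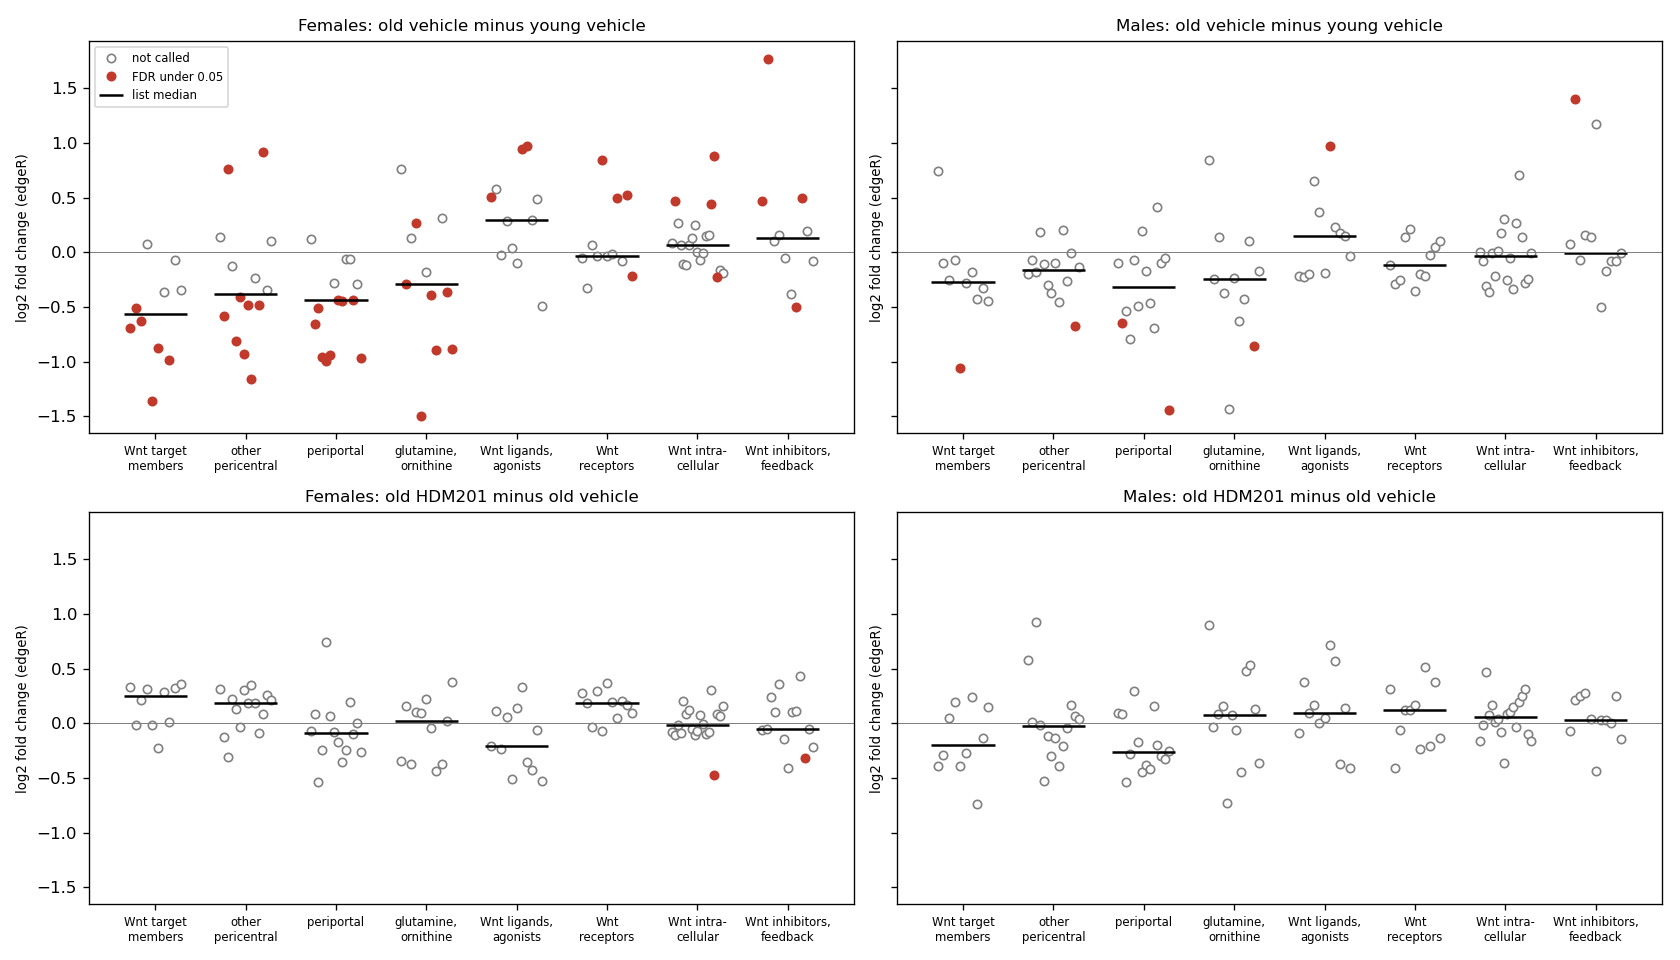
Log2 fold changes from edgeR for the genes of 8 lists, with age (top) and HDM201 (bottom) in females (left) and males (right). Each point is a gene that passed the filter on low counts, red points passed an FDR of 0.05 and black lines are list medians. In old females the medians of the members, other pericentral, periportal and glutamine lists are -0.57, -0.38, -0.44 and -0.29, and few red points appear for HDM201.

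With HDM201 in old females, no other pericentral, periportal, glutamine or ornithine gene was called, and 2 genes of the Wnt lists were, Tcf7l1 (-0.48 ± 0.12, FDR 0.046) and Tle2 (-0.32 ± 0.07, FDR 0.025), both lower. Over all genes tested there, 2.35% were called higher and 2.90% lower. The medians were 0.18 for other pericentral, -0.09 for periportal and 0.02 for glutamine and ornithine genes. At an unadjusted p under 0.05 were 5 of 14 other pericentral, 4 of 14 periportal and 6 of 11 glutamine and ornithine genes, beside 22.5% of all genes. In old males no gene of these lists or of the Wnt lists was called, with medians of -0.03, -0.27 and 0.08 for the same 3 lists.

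Markers of other liver cells moved with age and HDM201 beside the members. All 9 macrophage markers rose with age in females, from a summed 238 to 359 CPM in young to 385 to 809 in old vehicle mice, and 7 of the 9 were lower after HDM201, at 244 to 399 CPM. Of 10 lymphocyte markers 7 rose with age in females, from 5.74 to 7.40 summed CPM to 21.7 to 37.5. In males 2 of 9 macrophage and 4 of 7 tested lymphocyte markers rose with age, and none of either list was called with HDM201. Endothelial markers gave 1 rise and 1 fall among 14 with age in females, with summed levels of 278 to 358 CPM in young and 286 to 354 in old vehicle mice, and none was called in males. None of 7 hepatocyte markers was called with age in either sex, and their medians were 0.07 in females and 0.00 in males. With age in females 3 of 9 stellate, 2 of 5 tested cholangiocyte, 2 of 2 tested neutrophil and 1 of 5 erythroid markers also rose and none fell, and in males 1 of 9 stellate and 1 of 5 cholangiocyte markers rose. With HDM201 in females 2 of 5 cholangiocyte markers rose, and 1 of 10 lymphocyte, 1 of 3 tested neutrophil, 1 of 14 endothelial and 1 of 7 hepatocyte markers fell. Over all genes with age, 16.8% were called higher and 15.0% lower in females, and 2.76% higher and 0.931% lower in males. With HDM201 in females 2.35% were called higher and 2.90% lower. Counts of 1 marker in a list are to be read beside these shares. The part of these markers in the members' changes was not tested.

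Genes with the pattern most like a member over the 27 mice were found by Pearson correlation of log2(CPM + 1) among 12773 genes with a mean CPM of at least 1, as a description across mice that share their groups. Glul was most like Teddm2 (r = 0.89), Rhbg (0.87) and Ank (0.83), and with each group's mean removed these were 0.72, 0.69 and 0.61. Teddm2 lies on the opposite strand and its exons overlap those of Glul, so without a stated strand setting reads in the shared bases cannot be told apart. Of Glul's exon bases, 3.49% are shared with any other gene. Rhbg is itself a member. Lect2 was most like 9630013D21Rik (0.93), Pon1 (0.89), which encodes paraoxonase, and Aldh4a1 (0.89), a mitochondrial enzyme of proline breakdown, with 0.51, 0.50 and 0.47 after removal of group means. Axin2 was most like AL845275.1 (0.73), Gm24270 (0.73) and the kinase gene Rps6ka5 (0.72), with 0.64, 0.70 and 0.66 after removal of group means.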

How the data were processed

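Libraries were made from polyA RNA of fresh liver, 1 per mouse. The authors used STAR to align reads to mm10, filtered the alignments (SAMtools), counted with HTSeq and deposited whole-number counts, not normalized, for 27 of 29 mice. FPKM values were made by the authors with Cufflinks and deposited for all 29 mice, and their empty cells were read as 0. Strand setting and tool versions are not given in the sources used here.

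The 10 genes, the gene lists and the tests were chosen with earlier results of these data known. Of 207 genes in the lists 206 were found, and Tf was not analysed here. Counts were tested in edgeR 4.0.16 (R 4.3.3), separately for the groups of each comparison, after filterByExpr (minimum count 10, minimum total 15) and TMM scaling, which also set the CPM. The quasi-likelihood F test was adjusted by Benjamini-Hochberg over all genes tested, with an FDR threshold of 0.05. The design named old vehicle male 1 and young male 5, which had no counts and entered the FPKM fits only. Alternatives were RLE size factors, DESeq2 1.42.0, no filter, a fit over all 6 groups, a replicate block, each mouse left out, an FDR of 0.01, and limma 3.58.1 on log2(FPKM + 1) and log2(FPKM + 0.1) for genes of at least 0.1 FPKM. The edgeR script was tested on simulated counts.

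Named were all 10 members, the called list genes with the greatest change (2 in each direction) for the lists described, the genes most like Glul, Axin2 and Lect2, and label checks. Wnt2, Wnt9b, Rspo3, Cps1, Glud1, Porcn and Prodh were singled out after their values were seen. Rhbg, with few counts, carries more counting error than Glul or Oat. Genes were matched to GENCODE (GRCm38) by ID without version. Promoter sequences are from RefSeq.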

Additional observations from a re-analysis of the deposited data

Results flagged for a closer look

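The 60 combinations of gene and group were each searched for a mouse far from the rest of its group by Dixon's ratio, a rule that chance meets in about 1 of 20 groups, and 2 were met. Axin2 in young vehicle male 2 was 15.4 CPM, beside 9.31 to 9.54 in the other 3 young males. Tbx3 in old vehicle male 2 was 18.3 CPM, beside 40.3 to 42.4 in the other 3 old vehicle males.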

How the results depend on the processing

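Of the 10 genes, 6 were called with age in females, 4 at an FDR of 0.01 (without Rhbg and Axin2), 5 with the replicate block, 7 with RLE size factors, no filter, all 6 groups in one fit or DESeq2, 6 with limma on either FPKM scale, and 5 to 7 over the mice left out in turn. With age in males it was 1, and 0 at an FDR of 0.01, with the replicate block and with limma on log2(FPKM + 1) or log2(FPKM + 0.1), 2 with all 6 groups in one fit and with DESeq2, and 0 to 1 over the mice left out. With HDM201 it was 0 in females, and 0 to 1 over the mice left out. In males it was 0, and 1 with DESeq2. For old HDM201 against young males it was 2, and 1 with limma on either FPKM scale, and 2 to 3 over the mice left out. For sex by age it was 0, and 1 without a filter, with all 6 groups in one fit and with DESeq2, and 0 to 1 over the mice left out. The share of all genes called under each alternative is not given here, so these counts describe the members only.

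No called gene changed sign under an alternative. Of the log2 changes that did, in age in females Tbx3 was 0.022 with the replicate block, 0.092 on log2(FPKM + 1) and 0.10 on log2(FPKM + 0.1), and over the mice left out Tbx3 was -0.19 to 0.025 and Lgr5 -0.083 to 0.21. With age in males Rhbg was 0.0088 on log2(FPKM + 1), and over the mice left out Glul was -0.25 to 0.045, Lgr5 -0.35 to 0.31 and Rnf43 -0.33 to 0.056. With HDM201 in females Oat was 0.00099 and Slc1a2 -0.058 with the replicate block, Slc1a2 was -0.086 on log2(FPKM + 1) and -0.089 on log2(FPKM + 0.1), and over the mice left out Glul was -0.11 to 0.075, Oat -0.11 to 0.073 and Slc1a2 -0.098 to 0.11. With HDM201 in males Lect2 was -0.0085 with the replicate block, and over the mice left out Lect2 was -0.044 to 0.17 and Rhbg -0.47 to 0.020. Between young females and males Znrf3 was 0.0050 with all 6 groups in one fit, 0.048 on log2(FPKM + 1), 0.075 on log2(FPKM + 0.1) and -0.064 to 0.061 over the mice left out. The causes were not tested.

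The replicate numbers did not pair the mice, with correlations of -0.32 to 0.24 between same-numbered mice, over 0.1 in 6 of 28 pairs. With the replicate block Axin2 lost its call with age in females (FDR 0.053), Oat its call with age in males (FDR 0.150), and Tbx3 was called for old HDM201 against young males (-0.58, FDR 0.033). At these depths genes with few counts, such as Rhbg and Lgr5, are the least precise.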

Other observations

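The 2 mice with FPKM values only were compared with the mice of their own group. In young vehicle male 5, Oat was 132 FPKM, beside 280 to 399 in the other 4 young males, and Tbx3 was 16.2 FPKM, beside 5.89 to 10.9. Slc1a2, Rnf43, Znrf3 and Lect2 were also below the range of the other young males in this mouse, so 5 of the 10 genes lay below, 1 above and 4 within. In old vehicle male 1, Rhbg was 8.61 FPKM, beside 1.88 to 3.72 in the other 4 old vehicle males, Slc1a2 and Lgr5 lay below the range of the others, and the remaining 7 genes were within. These mice entered no comparison of counts. The paper excluded a young male for an open wound and suspected infection, and does not say whether it was young male 5.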
